A study of Rattus norvegicus with 10 samples.

Results

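The 45 genes described here are mitosis, kinetochore and cytokinesis genes, taken by symbol from a list of 50 and found among the 10184 genes of the deposited table. Ccnb2, Cks2, Cenpa, Racgap1 and Anln carried no row under these symbols and were not analysed here. All 45 passed the filter on low values and were among the 8431 genes tested. RCS is a cell line from a rat chondrosarcoma, a cartilage tumour, and keeps chondrocyte features in culture. Its RNA was harvested 48 h after the cells were seeded. The cells were either wild type (WT, 5 libraries) or carried a knockout (KO) of ARSL, which encodes arylsulfatase L, a sulfatase (ARSL KO, 5 libraries). The labels name no treatment and call the libraries of each group biological replicates. The sources used here do not say whether the knockout libraries came from 1 clone or from several, so the genotype and the origin of the line cannot be told apart. How the cultures of a group were kept apart is not described, so the p-values measure the spread between these libraries only.

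Cells enter mitosis when cyclin-dependent kinase 1, bound to its cyclins, becomes active. The genes for the spindle, the kinetochores and the division furrow are transcribed mostly in G2 and mitosis. The kinetochore joins each chromosome to spindle microtubules, the spindle checkpoint delays anaphase until all are attached, and the midzone then directs the cleavage of the cell. A culture with more dividing cells therefore carries more of these mRNAs. In bulk RNA, fewer dividing cells and less mRNA per dividing cell cannot be told apart. In cartilage, chondrocytes divide in the proliferative zone of the growth plate and leave the cycle as they mature.

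Differences, written as KO minus WT unless stated, are on the variance-stabilized, log2-like scale of the table. Levels and folds are in normalised reads recovered from it, without adjustment for gene length. Recovered reads ranged from 2065594 to 2591819 per library. On the first principal component, which held 51.1% of the variance, WT 3 reached 28.0, WT 4 26.8 and ARSL KO 4 7.9, with scores from -15.0 to -3.0 in the remaining 7 libraries. These 3 libraries are named beside the results they touch. Of 11 chondrocyte markers, 9 were in the table, among them Col2a1 with 2174 to 3987 normalised reads. Of 20 markers of immune, endothelial, fibroblast and epithelial cells, 2 were in the table and 0 passed the filter. The targeted gene was not analysed here, so no check of the genotype labels was made with it.

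None of the 45 genes passed the test of KO against WT, which 1.14% of all tested genes passed. The clearest pattern lay within the WT group. In 38 of 45 genes WT 3 and WT 4 were both below all other WT libraries, against 29.0% of all tested genes, and in 0 genes were both above (27.2% of all tested genes). The median gene had 1.61 times as many normalised reads in WT 1, WT 2 and WT 5 as in WT 3 and WT 4, where the median of all tested genes was 1.01. These libraries were singled out in earlier results of these data, so their values are a description with no test. Together the 45 genes took 0.552% and 0.573% of recovered reads in WT 3 and WT 4, 0.720% in WT 5 and 0.764% in ARSL KO 4. In the other 6 libraries they took 0.909% to 0.980%.

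**Figure D1:**
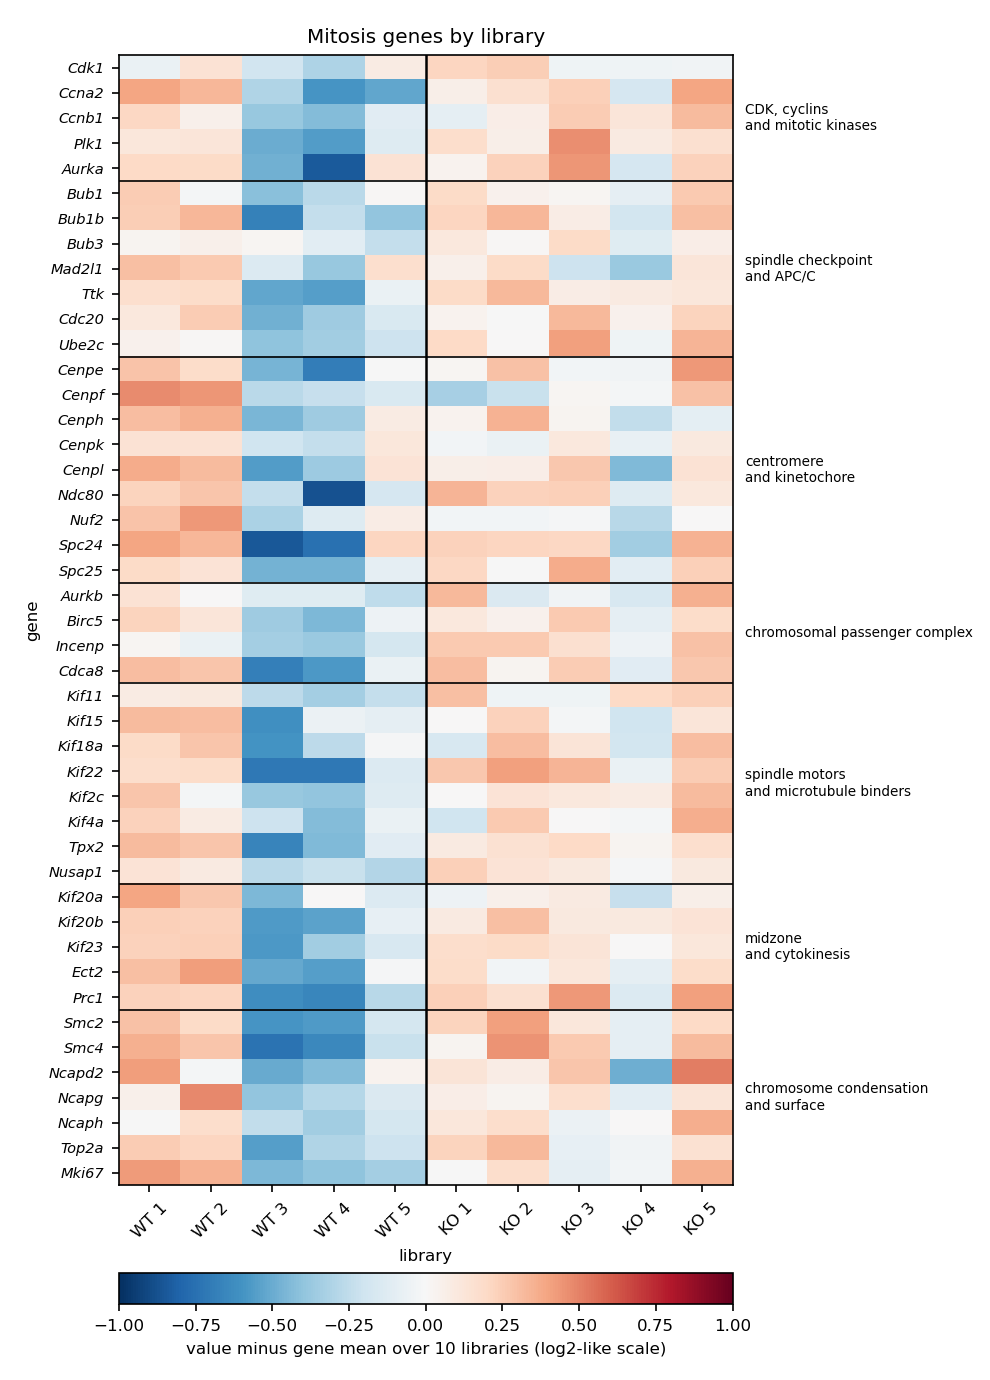
Each row is a gene and each column a library, and the colour is the deviation from the gene's mean over the 10 libraries on the log2-like scale, from blue (lower) to red (higher); black lines part the role groups and the genotypes. The columns of WT 3 and WT 4 are blue in nearly all rows, with mean deviations of -0.44 and -0.41, and the other libraries lie between -0.11 and 0.23.

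The promoters of these genes are shown because 38 of the genes were low in the same pair of WT libraries. Genes of the G2 and M phases are known for a cell cycle genes homology region (CHR), bound by the MuvB complex with B-Myb and FoxM1, and for CCAAT boxes bound by NF-Y, whereas genes of DNA replication are known for E2F sites. RefSeq promoter windows on build GRCr8, from 250 bases before to 50 bases after the start, were matched by symbol for 40 of the 45 genes, 41 windows in all. The letters searched on both strands were TTTGAA or TTCGAA for the CHR, CCAAT for the CCAAT box, and TTTGGCGC, TTTGCCGC, TTTCGCGC or TTTCCCGC for E2F. Matches of different motifs overlapped each other in 2 of the 41 windows. The CHR letters stood in 27 windows, 65.9%, against 14.0% of the windows of all tested genes and 19.7% of all promoter windows. The CCAAT letters stood in 28, 68.3%, against 38.8% and 37.5%. The E2F letters stood in 2, 4.9%, against 4.7% and 2.1%. Among 33 windows of DNA replication genes the shares were 18.2% for the CHR, 66.7% for CCAAT and 48.5% for E2F. Of the 34 DNA replication genes tested, 30 also had WT 3 and WT 4 below the other WT libraries (29.0% of all tested genes). A match is a description of letters, not of a bound site.

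**Figure D2:**
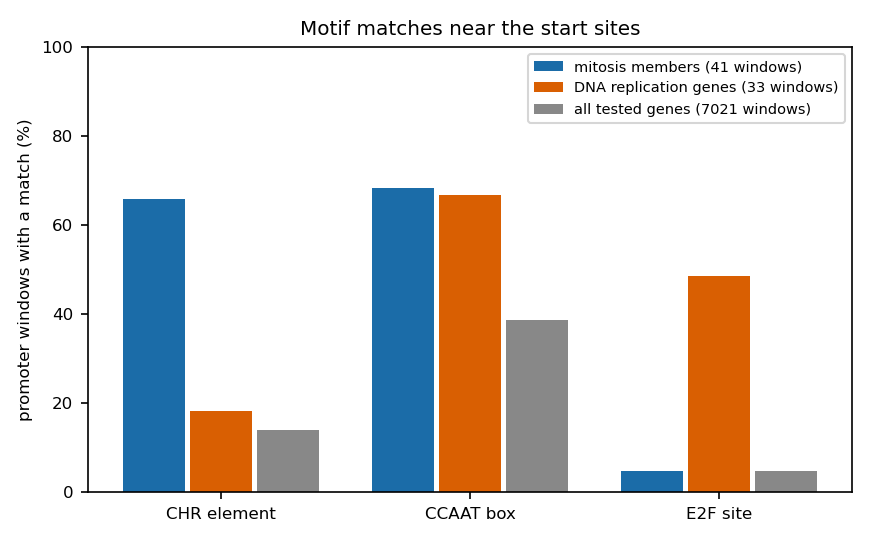
Bars give the percentage of promoter windows with at least 1 match to each motif for the mitosis genes, DNA replication genes and all tested genes, on an axis from 0 to 100%. The CHR bar is highest for the mitosis genes (65.9%) and the E2F bar for the DNA replication genes (48.5%), while the CCAAT bars of both sets are near each other (68.3% and 66.7%).

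The following stretches are the last 150 bases before the start, written 5′ to 3′ in the direction of transcription. CHR, CCAAT and E2F letters on either strand are in capitals. The stretches were chosen after the values were seen. Cdk1, Top2a, Prc1, Kif22 and Cdc20 stand for promoters with both the CHR and CCAAT, Ect2 and Spc24 for wide gaps within WT, and Bub3 for a gene with no such gap. Their GRCr8 positions and strands are Cdk1 chr20:19265143-19265292 (+), Top2a chr10:84473094-84473243 (-), Prc1 chr1:143659331-143659480 (+), Kif22 chr1:191080879-191081028 (-), Ect2 chr2:111966627-111966776 (-), Cdc20 chr5:137255800-137255949 (-), Spc24 chr8:28581300-28581449 (-), Bub3 chr1:195760382-195760531 (+).
Cdk1: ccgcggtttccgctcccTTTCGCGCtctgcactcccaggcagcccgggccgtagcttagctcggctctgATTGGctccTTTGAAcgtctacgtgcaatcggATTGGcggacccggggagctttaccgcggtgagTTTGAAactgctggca
Top2a: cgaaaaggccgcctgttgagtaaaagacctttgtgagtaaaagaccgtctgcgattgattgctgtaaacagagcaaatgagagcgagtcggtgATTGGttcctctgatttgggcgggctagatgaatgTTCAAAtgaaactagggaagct
Prc1: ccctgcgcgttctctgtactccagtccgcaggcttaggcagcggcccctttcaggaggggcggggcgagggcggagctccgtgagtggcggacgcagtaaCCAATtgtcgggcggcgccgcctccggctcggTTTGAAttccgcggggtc
Kif22: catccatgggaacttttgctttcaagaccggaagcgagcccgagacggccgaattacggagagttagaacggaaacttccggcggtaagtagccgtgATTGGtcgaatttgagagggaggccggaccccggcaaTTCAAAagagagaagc
Ect2: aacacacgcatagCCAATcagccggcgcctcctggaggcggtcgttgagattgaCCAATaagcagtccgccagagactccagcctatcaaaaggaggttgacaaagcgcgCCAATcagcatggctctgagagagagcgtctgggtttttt
Cdc20: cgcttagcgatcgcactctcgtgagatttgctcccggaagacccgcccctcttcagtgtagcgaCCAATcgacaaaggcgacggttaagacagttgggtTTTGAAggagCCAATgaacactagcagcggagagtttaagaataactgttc
Spc24: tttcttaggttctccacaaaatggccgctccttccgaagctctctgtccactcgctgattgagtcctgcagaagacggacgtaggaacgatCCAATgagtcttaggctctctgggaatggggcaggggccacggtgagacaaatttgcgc
Bub3: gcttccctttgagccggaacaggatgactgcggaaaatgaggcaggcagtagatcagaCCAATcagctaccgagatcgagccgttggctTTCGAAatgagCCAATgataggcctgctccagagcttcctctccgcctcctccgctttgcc
Each of these picked 150-base stretches held at least 1 CCAAT match, but 12 of the 40 genes had no CCAAT letters in their windows. Neither CHR nor CCAAT letters stood in 8 of the 41 windows (19.5%, against 53.3% of the windows of all tested genes). Ect2 had 2 CHR matches in its window, with first bases at -155 and -3 from the start, which lie outside the printed stretch or run past its end and so carry no capitals. Spc24 had 0 CHR matches in its whole window. Bub3 had 1 CHR match. The 27 genes with CHR letters had a median difference of -0.55 between WT 3 and WT 4 and the other WT libraries, and the 13 without had -0.45 (log2-like scale).

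All 9 centromere and kinetochore genes and all 7 genes of chromosome condensation had WT 3 and WT 4 below the other WT libraries. Over all tested genes this share was 29.0%, against which the other role-group counts are also to be read. The counts were 4 of 5 CDK, cyclin and kinase genes, 5 of 7 checkpoint and APC/C genes, 3 of 4 passenger genes, 6 of 8 spindle genes and 4 of 5 midzone genes. The 7 genes in which they were not both lowest were Ccna2, Bub1b, Bub3, Aurkb, Kif15, Nusap1 and Kif20a. WT 5 lay between WT 1 and WT 2 above it and WT 3 and WT 4 below it in 35 of 45 genes (14.0% of all tested genes). ARSL KO 4 was the lowest KO library in 32 of 45 (27.2% of all tested genes) and the highest in 0 (26.7%).

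**Figure D3:**
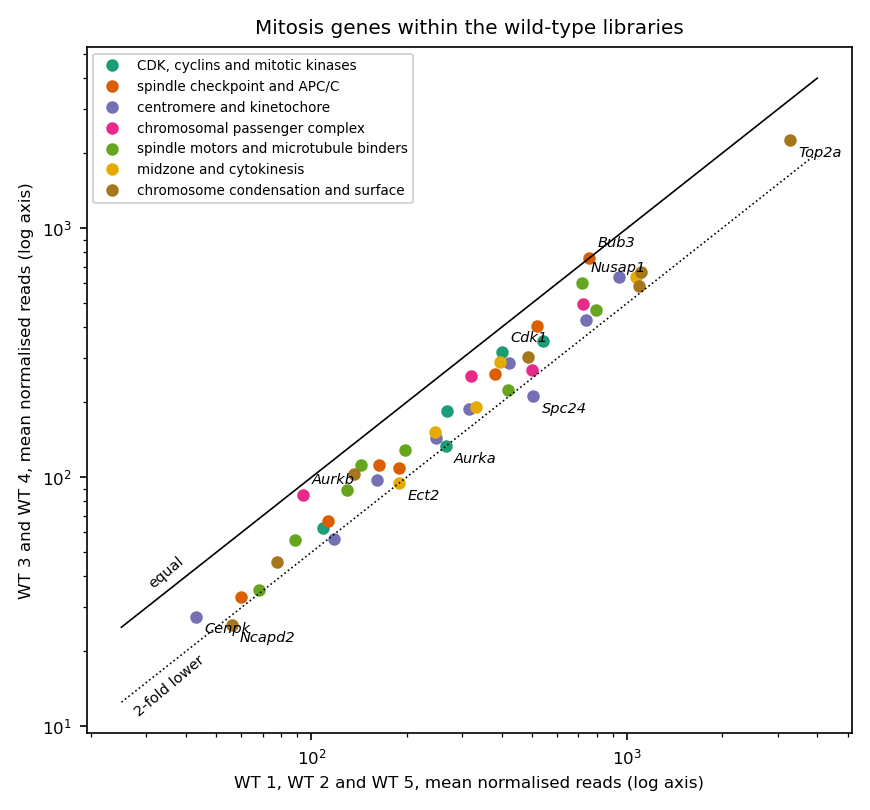
Each point is a gene, with its mean normalised reads in WT 1, WT 2 and WT 5 on the horizontal log axis and in WT 3 and WT 4 on the vertical log axis; the solid line marks equal values and the dotted line 2-fold lower values. Bub3 lies on the line of equal values and Spc24 lies farthest below it, at 2.38-fold, with 28 of 45 genes at 1.5-fold or more.

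Among the kinases and cyclins that drive entry into mitosis, Plk1, a kinase of centrosomes and kinetochores, had the smallest p. Plk1 (ENSRNOG00000018815) had 570.1, 574, 360.0, 344 and 476 normalised reads in WT 1 to WT 5 and 597, 552, 738, 562 and 593 in ARSL KO 1 to ARSL KO 5. The KO values overlapped the 2 highest WT values, and WT 3 and WT 4 were the lowest of all 10 libraries. It differed by 0.38 between KO and WT (SE 0.140; limma adjusted p = 0.236), and by 0.18 without WT 3, WT 4 and ARSL KO 4 (adjusted p = 0.374). Ccnb1, the cyclin B that activates Cdk1, had 303, 270.0, 189, 181 and 235 normalised reads in WT 1 to WT 5 and 240.5, 272, 317, 285 and 332 in ARSL KO 1 to ARSL KO 5. It differed by 0.27 between KO and WT (SE 0.130; limma adjusted p = 0.385), with WT 3 and WT 4 again lowest. Aurka, the kinase of spindle poles, had the widest gap of this group within WT, with 154 and 113 in WT 3 and WT 4 and 271, 269 and 259 in WT 1, WT 2 and WT 5, 1.99-fold apart. Its KO libraries had 237, 279, 328, 202 and 278 normalised reads, overlapping those of WT 1, WT 2 and WT 5, and it differed by 0.31 between KO and WT (SE 0.191; limma adjusted p = 0.501). Cdk1, the kinase that the cyclins activate, had a narrow gap, 1.27-fold, and a KO minus WT difference of 0.13 (limma adjusted p = 0.619). Ccna2, cyclin A, was low in WT 5 as well, at 57.1 normalised reads beside 72.2 and 52.6 in WT 3 and WT 4.

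In the spindle checkpoint and the anaphase-promoting complex (APC/C), Ube2c, the ubiquitin-conjugating enzyme of the APC/C, had 554, 542, 397, 412 and 461 normalised reads in WT 1 to WT 5 and 626, 539.8, 728, 522 and 692 in ARSL KO 1 to ARSL KO 5. ARSL KO 3 and ARSL KO 5 were the highest, and the lowest KO value lay below 2 WT values. It differed by 0.37 between KO and WT (SE 0.120; limma adjusted p = 0.186), and by 0.29 without the 3 libraries (adjusted p = 0.102). Ttk, the checkpoint kinase Mps1, had 201, 203, 110.5, 107 and 165 normalised reads in WT 1 to WT 5 and 205, 228, 185, 188 and 191 in ARSL KO 1 to ARSL KO 5. The WT 3 and WT 4 values lay below all others, and the KO values overlapped those of WT 1 and WT 2. It differed by 0.31 between KO and WT (SE 0.146; limma adjusted p = 0.37), and by 0.08 without the 3 libraries. Cdc20, the activator of the APC/C in anaphase, and Bub1, a checkpoint kinase, had gaps within WT of 1.48-fold and 1.46-fold. Bub3, which brings checkpoint kinases to kinetochores, had 798, 814, 795, 729 and 658 normalised reads in WT 1 to WT 5 and 847, 787, 900.1, 716 and 826 in ARSL KO 1 to ARSL KO 5. Its WT 3 and WT 4 values lay inside the range of the other WT libraries. Mad2l1, the Mad2 protein that holds Cdc20 inactive, was 1 of 4 genes with a lower mean in KO, with a difference of -0.08 (limma adjusted p = 0.833).

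Among the 9 kinetochore genes the median gap within WT was 1.68-fold, and 7 had a higher mean in KO. Spc24, Spc25, Ndc80 and Nuf2 encode the 4 subunits of the Ndc80 complex, which grips microtubules. Spc24 (ENSRNOG00000029862) had 534, 511, 204, 219.9 and 465 normalised reads in WT 1 to WT 5 and 472, 467, 464, 302 and 513 in ARSL KO 1 to ARSL KO 5. The lowest libraries were WT 3 and WT 4, and ARSL KO 4 was next. The gap within WT was 2.38-fold, the widest of the 45 genes, while the genotypes differed by 0.26 (SE 0.235; limma adjusted p = 0.653). Its partner Spc25 had 176, 169, 97.4, 97.5 and 138 normalised reads in WT 1 to WT 5 and 179, 149.9, 204, 137 and 183 in ARSL KO 1 to ARSL KO 5. Its lowest libraries were also WT 3 and WT 4, with a gap of 1.66-fold, and it differed by 0.28 between KO and WT (SE 0.146; limma adjusted p = 0.418). Ndc80 had 339.9, 358, 237, 139.6 and 250.5 normalised reads in WT 1 to WT 5 and 374, 343, 347, 259 and 314 in ARSL KO 1 to ARSL KO 5. The lowest library was WT 4, and the KO values overlapped those of WT 1, WT 2 and WT 5. The difference for Ndc80 was 0.31 (SE 0.181; limma adjusted p = 0.476).

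Nuf2 had a lower mean in KO, without passing the test. It had 424, 477, 267, 311 and 364 normalised reads in WT 1 to WT 5 and 336, 337, 339.7, 276 and 343 in ARSL KO 1 to ARSL KO 5. The KO libraries lay below WT 1, WT 2 and WT 5 but overlapped WT 3 and WT 4, and the difference was -0.14 with all libraries (limma adjusted p = 0.671) and -0.28 without the 3 libraries (adjusted p = 0.101). Cenpf, a large protein of the outer kinetochore, had differences of -0.11 and -0.31 in these fits (limma adjusted p = 0.807 and 0.215). The kinesin Cenpe, which moves chromosomes to the spindle equator, and Cenph, Cenpk and Cenpl of the inner kinetochore had gaps within WT of 1.73-fold, 1.73-fold, 1.56-fold and 2.08-fold. The median difference between genotypes over the 9 kinetochore genes was 0.04, and -0.11 without the 3 libraries.

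The chromosomal passenger complex, which corrects faulty attachments and later marks the midzone, held the gene with the smallest p of all 45. Incenp (ENSRNOG00000032929), its scaffold, had 344, 321, 258, 252 and 294 normalised reads in WT 1 to WT 5 and 414, 413, 383, 326 and 422 in ARSL KO 1 to ARSL KO 5. Of the KO libraries, only ARSL KO 4 lay below a WT library, WT 1, and the other KO libraries were above all WT libraries. Incenp differed by 0.37 between KO and WT (SE 0.104; limma adjusted p = 0.118), 1.33-fold in normalised reads. Without WT 3, WT 4 and ARSL KO 4, an alternative chosen after seeing the data, it rose by 0.32 (SE 0.089; limma adjusted p = 0.0452). It was the 1 of 45 genes to pass in that fit, where 1.34% of all tested genes rose and 2.22% fell, and its adjusted p ranged from 0.0452 to 0.260 over the alternatives. Cdca8, the borealin subunit, had 256 and 281 normalised reads in WT 3 and WT 4 and 548, 539 and 416 in WT 1, WT 2 and WT 5, beside 549.7, 446, 529, 400.1 and 533 in ARSL KO 1 to ARSL KO 5. The KO values overlapped those of WT 1, WT 2 and WT 5. Its genotype difference of 0.29 (SE 0.182; limma adjusted p = 0.503) was 0.04 without the 3 libraries. Birc5, survivin, had a gap within WT of 1.46-fold, and Aurkb, the kinase of the complex, had one of 1.11-fold, with 85.3 and 85.1 in WT 3 and WT 4 and 75.1 in WT 5.

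**Figure D4:**
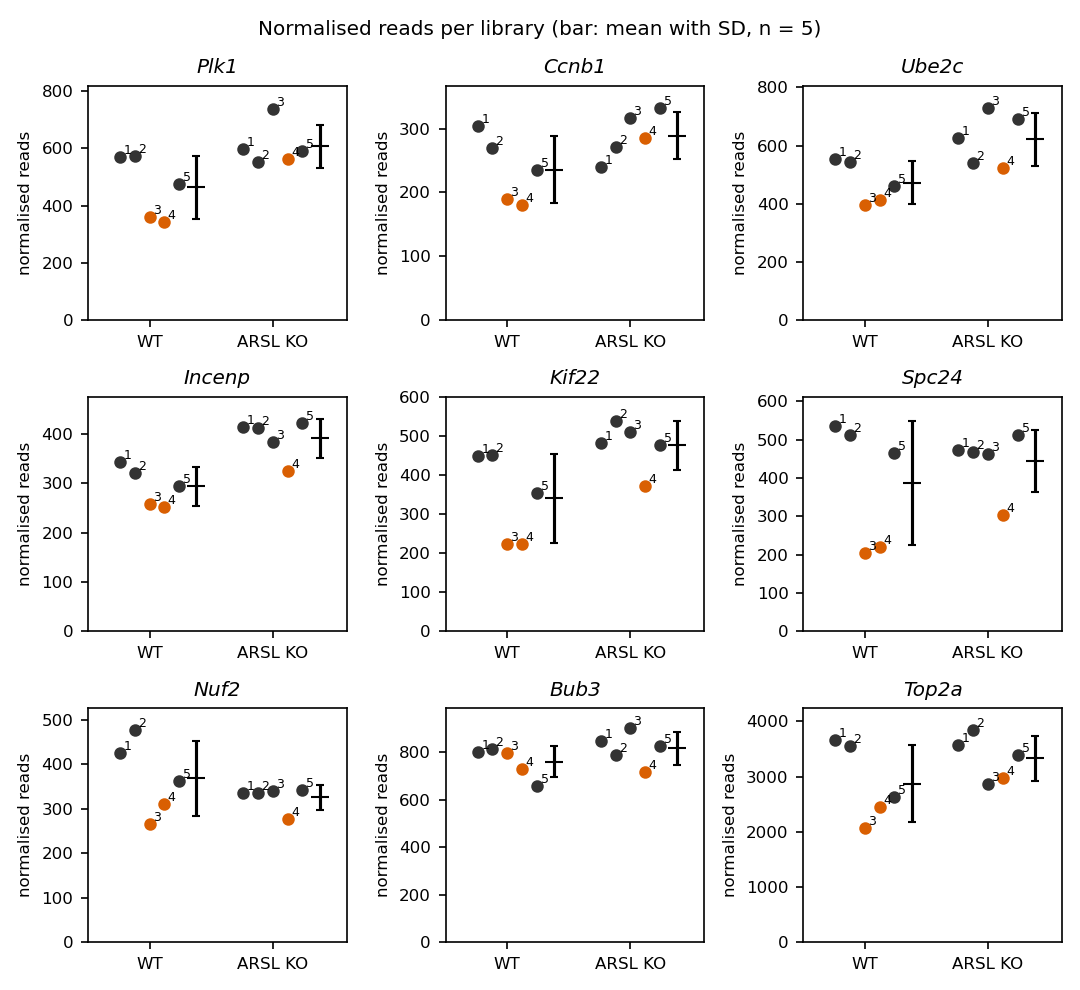
Panels give normalised reads per library on linear axes from 0 for 9 genes, with the replicate number beside each point, orange points for WT 3, WT 4 and ARSL KO 4, and a bar for the mean with SD (n = 5). The 9 genes were picked for display. In 8 of them WT 3 and WT 4 are lowest of their group, with Bub3 as the exception, against 38 of all 45 genes and 29.0% of all tested genes. Incenp and Kif22 are the genes in which 4 KO libraries lie above all WT libraries.

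Among spindle motors, Kif22, a chromosome-arm motor, had the largest difference between genotypes of the 45 genes. Kif22 had 449.8, 453, 224, 225 and 354 normalised reads in WT 1 to WT 5 and 484, 539.8, 512, 374 and 478 in ARSL KO 1 to ARSL KO 5. The lowest were WT 3 and WT 4, with about the same value, and ARSL KO 4 lay below WT 1 and WT 2. Kif22 differed by 0.49 between KO and WT (SE 0.178; limma adjusted p = 0.233), and by 0.25 without the 3 libraries (adjusted p = 0.153). Kif11, the motor that separates the spindle poles, had 156, 159, 116, 107 and 117 normalised reads in WT 1 to WT 5 and 188, 141, 141, 174 and 179 in ARSL KO 1 to ARSL KO 5. ARSL KO 2 and ARSL KO 3 lay below WT 1 and WT 2, and ARSL KO 4 was above all WT libraries. Kif11 differed by 0.27 between KO and WT (SE 0.116; limma adjusted p = 0.321). Tpx2, which activates Aurka on the spindle, and Kif18a, a motor that limits microtubule growth, had gaps within WT of 1.71-fold and 1.94-fold and genotype differences of -0.01 and -0.01 without the 3 libraries. Kif15, Kif2c, Kif4a and the microtubule bundler Nusap1 had gaps of 1.54-fold, 1.58-fold, 1.45-fold and 1.19-fold.

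At the midzone, Prc1, which bundles antiparallel microtubules, had 1193, 1175, 644, 628 and 828 normalised reads in WT 1 to WT 5 and 1199, 1135, 1376, 912 and 1360 in ARSL KO 1 to ARSL KO 5. ARSL KO 3 and ARSL KO 5 were the highest and WT 3 and WT 4 the lowest, and the KO values overlapped those of WT 1 and WT 2. It differed by 0.44 between KO and WT (SE 0.179; limma adjusted p = 0.289), and by 0.26 without the 3 libraries (adjusted p = 0.211). Kif20b, a motor of late cytokinesis, had 190.4 and 194 normalised reads in WT 3 and WT 4, 361, 357 and 281 in WT 1, WT 2 and WT 5, and 321, 377, 323, 322 and 333 in ARSL KO 1 to ARSL KO 5. Its genotype difference was 0.28 (limma adjusted p = 0.444) with all libraries and 0.03 without the 3. Ect2, which activates RhoA at the furrow, had 198, 218, 96.3, 92.7 and 152 normalised reads in WT 1 to WT 5 and 179, 149.9, 169, 142 and 178 in ARSL KO 1 to ARSL KO 5. The other WT libraries had 2.00 times as many reads as WT 3 and WT 4, and WT 1 and WT 2 were above all KO libraries. The difference for Ect2 was 0.14 (limma adjusted p = 0.737), and -0.12 without the 3 libraries. Kif23 and Kif20a, motors of the midzone, had gaps within WT of 1.61-fold and 1.36-fold.

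Among the genes that shape mitotic chromosomes, Smc4 and Smc2, the core ATPases of condensin, had gaps within WT of 1.86-fold and 1.66-fold. Smc4 had 1252, 1184, 561, 605 and 827 normalised reads in WT 1 to WT 5 and 991, 1333, 1171, 906 and 1220 in ARSL KO 1 to ARSL KO 5. The lowest libraries were WT 3, WT 4 and WT 5, and ARSL KO 4 was the lowest of KO. It differed by 0.39 between KO and WT (SE 0.199; limma adjusted p = 0.415), and by 0.13 without the 3 libraries. Smc2 had 1255, 1170, 662, 674 and 896 normalised reads in WT 1 to WT 5 and 1195, 1362, 1098, 952 and 1177 in ARSL KO 1 to ARSL KO 5, with the same 3 WT libraries lowest, and differed by 0.34 between KO and WT (SE 0.167; limma adjusted p = 0.397). The condensin subunit Ncaph had 135, 158, 108, 98.5 and 115 normalised reads in WT 1 to WT 5 and 149, 158, 128, 136 and 185 in ARSL KO 1 to ARSL KO 5. The WT values overlapped the KO values, and its gap within WT, 1.32-fold, was the narrowest of this group. It differed by 0.24 between KO and WT (SE 0.117; limma adjusted p = 0.396). Its partners Ncapd2 and Ncapg had gaps of 2.19-fold and 1.70-fold, the former at low levels of 24.1 to 80.7 normalised reads. Top2a, which untangles sister chromatids, had 3652, 3555, 2067, 2455 and 2632 normalised reads in WT 1 to WT 5 and 3564, 3837, 2871, 2967 and 3397 in ARSL KO 1 to ARSL KO 5. Here WT 3 and WT 4 were lowest, followed by WT 5. Mki67, which coats mitotic chromosomes and is the common marker of dividing cells, had 582, 549.7, 298, 309.7 and 324 normalised reads in WT 1 to WT 5 and 424, 483, 394, 413 and 553 in ARSL KO 1 to ARSL KO 5. Here too WT 5 was close to WT 3 and WT 4, and the genotype difference was 0.17 (limma adjusted p = 0.691).

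Over the 45 genes, limma called 0 of KO against WT (1.14% of all tested genes, 0.261% as rises and 0.878% as falls). At an unadjusted p under 0.05, 7 were higher in KO (6.16% of all tested genes) and 0 lower (7.32%). The limma-voom fit on recovered reads called 0 of the 45 and 88 of all 8431 tested genes. In that fit 6 of the 45 had an unadjusted p under 0.05, a cut not counted over all tested genes there. The mean was higher in KO for 41 of 45 genes (52.1% of all tested genes), with a median difference of 0.25 against 0.01 for all tested genes. Without WT 3, WT 4 and ARSL KO 4 it was higher for 31 of 45 (51.6%) and the median was 0.06, against 0.01 for all tested genes. In that fit 4 genes were higher in KO at an unadjusted p under 0.05 (7.35% of all tested genes) and 2, Nuf2 and Cenpf, were lower (8.55%). The difference became smaller or more negative for 43 of the 45 genes, a count not made over all tested genes. Because WT 3 and WT 4 were below the other WT libraries in 38 of the 45, leaving them out raises the WT mean. The count of 43 therefore largely restates their low values. In 0 genes did all KO libraries lie above all WT libraries (1.86%) or below them (2.40%).

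**Figure D5:**
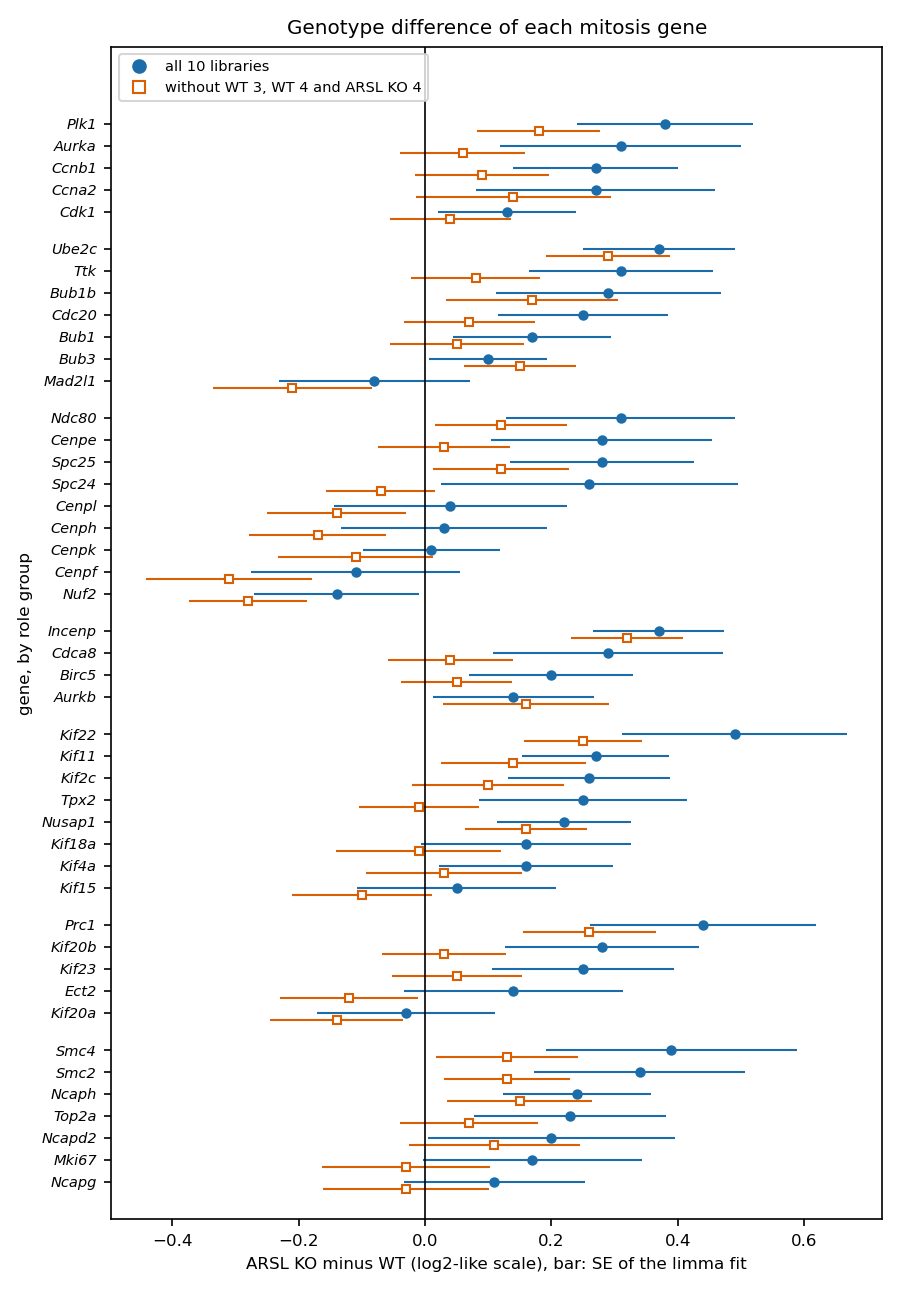
Points give the ARSL KO minus WT difference of each gene on the log2-like scale with the SE of the limma fit, filled circles for all 10 libraries and open squares without WT 3, WT 4 and ARSL KO 4. Circles range from -0.14 to 0.49 and squares from -0.31 to 0.32, and 43 of the 45 squares have a lower value than their circle. WT 3 and WT 4, left out of the squares, were below the other WT libraries in 38 of the 45 genes.

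Markers of cartilage were higher in the WT libraries in which these genes were lower. All 9 chondrocyte markers were higher in WT 3 and WT 4 than in every other WT library (27.2% of all tested genes were). Their summed level was 72994 and 72677 normalised reads in WT 3 and WT 4, 42270 to 45322 in the other WT libraries, 50705 in ARSL KO 4 and 37348 to 46425 in the other KO libraries. Between genotypes 1 of the 9 markers passed: Col11a1, a fibrillar collagen of cartilage, had 7130, 6783, 15272, 15001 and 7996 normalised reads in WT 1 to WT 5 and 4153, 4268, 4101, 5854 and 3586 in ARSL KO 1 to ARSL KO 5, and all KO libraries lay below all WT libraries (2.40% of all tested genes). It fell by 1.16 (SE 0.229; limma adjusted p = 0.0207), and by 0.85 without the 3 libraries (adjusted p = 1.45e-06). In that fit Col9a2, a collagen of the same fibrils, rose by 0.33 (limma adjusted p = 0.0483), beside -0.03 with all libraries (adjusted p = 0.968). Recovered reads of WT 3 and WT 4, 2118490 and 2434087, lay within the range of the other libraries. Reads of genes whose symbol begins with Mt- took 4.59% and 4.47% of reads in WT 3 and WT 4 and 6.26% to 6.41% in the other WT libraries, beside 3.67% to 5.03% in the KO libraries. The part of these measures in the result was not tested.

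Other genes of mitosis, not in the list of 45, were also often low in WT 3 and WT 4. Of 95 such genes, 59 had WT 3 and WT 4 below the other WT libraries and 7 had both above, with a median fold of 1.43. Over all tested genes these shares were 29.0% and 27.2%, and the median fold was 1.01, against which the following counts are also to be read. The counts were 18 of 25 other kinetochore genes, 21 of 30 other spindle and cytokinesis genes, 8 of 14 cohesin and condensin genes and 12 of 26 genes of mitotic entry and exit. Of 34 DNA replication genes, 30 were lower, with a median fold of 1.68. Among 14 regulators of G2 and M transcription, 7 were lower. Mybl2, which encodes B-Myb, had 200.5, 145, 64.6, 76.5 and 158 normalised reads in WT 1 to WT 5 and 172, 155, 174, 132 and 186 in ARSL KO 1 to ARSL KO 5. Foxm1, the transcription factor that works with it, had 72.3, 76.5, 46.0, 41.1 and 53.9 normalised reads in WT 1 to WT 5 and 95.5, 72.8, 114, 57.6 and 89.7 in ARSL KO 1 to ARSL KO 5. Both were lowest in WT 3 and WT 4, with gaps of 2.38-fold and 1.55-fold, and were named after their values were seen.

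With 15 CDK inhibitors and G1 cyclins added, 158 other pathway genes were compared between genotypes, and 0 passed in either direction, where 0.261% of all tested genes rose and 0.878% fell. At an unadjusted p under 0.05, 28 were higher in KO (6.16% of all tested genes) and 3 lower (7.32%), and limma-voom also called 0. The smallest p of each list belonged to Anapc13 among entry and exit genes, Cenpc among kinetochore genes, Ckap2 among spindle genes, Pds5a among cohesin genes, Rbl1 among regulators, Ccng1 among CDK inhibitors and G1 cyclins, and Cdc7 in DNA replication. Cdc7, the kinase that fires replication origins, had 76.7, 58.1, 37.2, 62.1 and 59.2 normalised reads in WT 1 to WT 5 and 114, 109.7, 132, 67.3 and 112 in ARSL KO 1 to ARSL KO 5. ARSL KO 4 was the 1 KO library below a WT library. It differed by 0.60 between KO and WT (SE 0.142; limma adjusted p = 0.0629). Ckap2, a spindle microtubule protein, differed by 0.54 between KO and WT (SE 0.161; limma adjusted p = 0.139), and Cenpc, which anchors the kinetochore to the centromere, differed by 0.47 between KO and WT (SE 0.127; limma adjusted p = 0.105). The differences of Anapc13, Pds5a, Rbl1 and Ccng1 were -0.22, 0.35, 0.45 and 0.38 (limma adjusted p = 0.274, 0.149, 0.197 and 0.13). In 4 of the 158 genes, Ccng1, Rfc1, Haus7 and Tfdp1, all KO libraries lay above all WT libraries (1.86% of all tested genes). Without the 3 libraries 4 of the 158 passed, all as rises: Cdc7 by 0.61, Rfc1, a clamp loader subunit, by 0.38, Cenpc by 0.42 and Ckap2 by 0.36 (limma adjusted p = 0.00219, 0.012, 0.0421 and 0.0338), where 1.34% of all tested genes rose and 2.22% fell. With ARSL KO 4 kept and WT 3 and WT 4 left out, 0 of the 158 passed, with limma adjusted p of 0.0673, 0.0975, 0.176 and 0.237 for these genes.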

How the data were processed

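Per the labels' protocols, mRNA of 10 RCS libraries (5 of each genotype) was sequenced by a digital mRNA-seq method. The tools listed in the submitters' processing notes are bcl2fastq, STAR 2.7.11a and HTSeq, with build rn6, with strand use and the transformation's tool not given in the sources used here. Values came from 1 table the authors deposited, of variance-stabilized log2-like values normalized for library size; its lowest value, 4.42, is that of 0 reads. The closed form of the transformation was inverted to normalised reads, which fell on whole-read steps in every library, with a largest departure of 8.5e-09 reads. Every gene of the table had at least 30 reads in total.

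The filter kept genes whose mean exceeded the lowest value by 1 or more, which is about 10.7 normalised reads. KO minus WT was fitted to the log2-like values by limma (3.58.1, R 4.3.3), with empirical Bayes and an intensity trend, two-sided. Benjamini-Hochberg adjustment ran over the 8431 genes, and calls have an adjusted p under 0.05. The fit was tested on simulated reads, drawn for each gene on its own. These held no shift shared across genes like that of WT 3 and WT 4, so the simulation does not cover it. Of the 10184 rows, 813 had no symbol. The members, gene lists and tests were chosen with earlier results of these data known. In each of 7 role groups, values were given for the 2 genes with the smallest p. They were also given for the gene with the widest gap within WT on the log2-like scale in each group. Every called gene was included, and from each other list the called genes, or the gene with the smallest p. Of these smallest-p genes of other lists, only Cdc7 has values for each library. Library values of further genes, among them Nuf2, Bub3, Top2a and Mki67, were added outside this rule. Other genes are named with shorter values. Tubg1 stood on 2 rows and was left out. The lowest chi-square per degree of freedom between replicates was 1.85, for WT 1 and WT 2. It was 2.37 for WT 3 and WT 4, and 15.75 to 21.33 between either of these and WT 1, WT 2 or WT 5. Among pairs of KO libraries it was 2.19 to 10.7. All libraries were kept. Alternatives were a replicate block, other filters, scalings and variance estimates, array weights, limma-voom, and leaving out libraries. Figures used matplotlib 3.10.9.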

Additional observations from a re-analysis of the deposited data

Results flagged for a closer look

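In a few genes 1 KO library stood far from the other 4, with a gap to its neighbour, as a share of the group's range on the log2-like scale, above Dixon's 95% critical value for 5 samples. For Plk1, ARSL KO 3 was the highest, at 738 normalised reads beside 597, 552, 562 and 593 in the others, and the gap took 0.731 of the range. For Nuf2 and Spc24, ARSL KO 4 was the lowest, with gaps of 0.909 and 0.804 of the range. It had 276 normalised reads of Nuf2 and 302 of Spc24. For Kif20b, ARSL KO 2 was the highest, at 377, with a gap of 0.778. These are 4 of 90 groups examined, and chance gives about 4.5. In 0 genes did 1 WT library stand apart in this way; the measure looks at 1 library at a time.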

How the results depend on the processing

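Of 45 genes, 0 were called between genotypes with the replicate block, each other filter, scaling, variance estimate or weighting, limma-voom and each single library left out (42 genes tested with the stricter filter), and 1, Incenp, without WT 3, WT 4 and ARSL KO 4 (0 without WT 3 and WT 4 alone). The median difference of 0.25 was 0.14 to 0.33 with 1 library left out, 0.09 with array weights, 0.06 without the 3 libraries and 0.01 without WT 3 and WT 4. The 2 lowest values with 1 library left out, 0.14 and 0.14, came from leaving out WT 3 or WT 4. Of the 45 genes, those at an unadjusted p under 0.05 numbered 25 without WT 1, 20 without WT 2, and 4 without WT 3 or WT 4, against 7 with all libraries. All tested genes at this cut were not counted in the fits with 1 library left out, so these counts have no share to be read against. Of the 158 other pathway genes, 0 were called with all libraries, 3 with a replicate block, 2 with array weights, 4 without the 3 libraries, 0 without WT 3 and WT 4 alone and 0 to 2 with 1 library left out (2 without WT 1 and 1 without ARSL KO 4). Of 378 values of 18 named genes under alternatives, 369 kept their direction and stayed uncalled, 1 (Incenp) became a call and 8 changed sign. With array weights Spc24 was -0.01 and Ect2 was -0.08; without the 3 libraries Spc24 was -0.07 and Ect2 was -0.12; without WT 3 and WT 4 Aurka was -0.02, Spc24 -0.18, Cdca8 -0.03 and Ect2 -0.16. The count of 38 genes with WT 3 and WT 4 below the other WT libraries was 38 after median centring and 36 after quantile normalization. Calls over all genes were 96, against 60 with the stricter filter, 219 with array weights, 33 to 101 with 1 library left out, 158 without WT 3 and WT 4 and 300 without the 3 libraries. Leaving out 2 or 3 libraries together was chosen after seeing the data.

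The replicate numbers were not taken to pair the libraries in the main fit, and the following 5 correlations cannot settle whether they do. Deviations of same-numbered libraries from their group means correlated at -0.06, 0.07, -0.29, 0.59 and 0.26 for numbers 1 to 5, and 2 of the 5 WT libraries correlated best with their own number. With the replicate block 0 of the 45 genes and 136 of all tested genes passed. At an unadjusted p under 0.05 there were 15 of the 45, a cut not counted over all tested genes in that fit. The 3 other pathway genes called with the block were Rfc1, Cenpc and Ckap2. Depth limits the weakest genes most, the least abundant of the 45 having 378 reads over the 10 libraries.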

Other observations

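Inhibitors of cyclin-dependent kinases did not share one direction in WT 3 and WT 4. Cdkn1a, which encodes p21, had 579, 626, 318, 369 and 488 normalised reads in WT 1 to WT 5 and 644, 606, 648, 541 and 768 in ARSL KO 1 to ARSL KO 5. Like the mitosis genes it was lowest in WT 3 and WT 4, 1.64-fold below the other WT libraries. Cdkn1b, which encodes p27, had 262, 237, 344, 314 and 207 normalised reads in WT 1 to WT 5 and 215, 225, 201, 282 and 236 in ARSL KO 1 to ARSL KO 5. It was highest in WT 3 and WT 4, and ARSL KO 4 was the highest of KO. The G1 cyclin gene Ccnd1 had 63.6, 66.8, 91.9, 100.4 and 156 normalised reads in WT 1 to WT 5 and 74.1, 83.6, 106, 161 and 129 in ARSL KO 1 to ARSL KO 5, and was highest in WT 5 among the WT libraries and in ARSL KO 4 among KO. These 3 genes come from the list of 15 CDK inhibitors and G1 genes and were picked after their values were seen. Of the 15, 6 had WT 3 and WT 4 below the other WT libraries (29.0% of all tested genes) and 4 had both above (27.2%).

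The widest gap within WT among the 34 DNA replication genes belonged to Prim1, a primase subunit, with 424, 389, 121, 126 and 302 normalised reads in WT 1 to WT 5 and 363, 432, 494, 249 and 430.5 in ARSL KO 1 to ARSL KO 5, 3.00-fold, against 2.38-fold for Spc24. In both, ARSL KO 4 was the lowest KO library.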
